A study of Rattus norvegicus with 12 samples.

Results

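The 39 genes described here are the immediate early genes and the feedback genes of the MAP kinase (MAPK) pathway, measured in rat N27 cells with and without the insecticide fipronil. They were taken by name from a list of transcription factors and feedback inhibitors, with no threshold on their values, out of 36180 genes and transcripts on the array, and 54 of its 45598 probes carry 1 of these names. The list was chosen with earlier results of these data known, so its comparisons with all genes below are descriptions and not tests. No probe had to be matched through an older symbol. Of the 39 genes, 24 had a probe that 6 or more of the 12 arrays showed well above background and were tested, and 15 were not.

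N27 is an immortalised rat line of embryonic midbrain origin that the labels call dopaminergic. Fipronil blocks chloride channels gated by GABA. Both groups were the same line, and 6 samples were exposed to 25 µM fipronil for 24 h and 6 were left untreated. The labels do not say whether the untreated cells received a vehicle, or whether samples of a group came from separate cultures, so the p-values reflect how far these samples scatter, and that scatter may be technical.

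Growth factor receptors pass their signal through RAS and the kinases RAF, MEK and ERK. ERK activates factors already bound at the promoters of immediate early genes, whose transcripts rise quickly and then decay. Some of these genes encode transcription factors (the AP-1, EGR, MYC, KLF and NR4A families). Others encode inhibitors that shut the pathway down again: DUSP phosphatases remove phosphate from MAP kinases, and Sprouty and Spred proteins act further up, between receptor and RAF. In neurons, several of these genes are known as markers of recent activity. A sample taken after 24 h shows the level at that time and not the early pulse.

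Each value below is the log2 processed signal of a gene's brightest probe minus the 75th percentile of its array, so it compares arrays and not genes. Of the 3 slides, slide 1 carried both treatments (control 2 and 3, fipronil 7 and 8), slide 2 carried control 5 to 8 and slide 3 carried fipronil 1 to 4. The 75th percentile of the processed signal was 260 ± 16.9 (SD, n = 4) on slide 1, 436 ± 43.5 on slide 2 and 126 ± 15.2 on slide 3. Over slides 2 and 3, treatment and slide cannot be told apart, so the difference within slide 1 is given beside most results. Of the 11 dopaminergic markers listed, 2 were tested and 6 were above background on no array, and of the 6 astrocyte markers 5 were above background on none. Neither Th (adjusted p = 0.152, limma) nor Aldh1a1 (0.0678), the tested dopaminergic markers, passed the threshold. Of the other marker lists, 1 of 3 tested neuronal markers (Ncam1, difference 0.73) and 1 of 3 tested mesenchymal markers (Col1a1, 0.98) were higher over the 12 arrays, and their part in the results below was not tested. Within slide 1 they differed by 0.25 and 0.09, and with slide in the fit their adjusted p was 0.465 and 0.892 (limma). In bulk RNA, fewer cells of a type and less RNA per cell cannot be told apart.

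After 24 h of fipronil, 4 of the 24 tested genes were lower and 0 were higher at an adjusted p under 0.05 (limma over all 13542 genes). The 4 were the proto-oncogene Myc, the receptor signalling inhibitor Spry1, the AP-1 subunit Junb and the survival-linked gene Ier3, and they were 1.57-fold to 1.81-fold lower. Among all genes, 2.77% were called lower and 2.24% higher, 5.01% in all. At an unadjusted p under 0.05, 10 of the 24 were lower and 1 was higher, where 15.7% of all genes were lower and 9.37% were higher. The groups did not overlap for Myc and Spry1, as for 4.18% of all genes (2.55% with fipronil the lower group). The difference was below 0 in 18 of 24 genes with a median of -0.25, against 59.7% of all genes and a median of -0.08. With the mean of a gene's probes in place of the brightest it was below 0 in 17.

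On slide 1, where both treatments shared a slide, 20 of the 24 genes were lower with fipronil, against 51.6% of all genes. The median difference on that slide was -0.35 over these genes and -0.02 over all genes. Both fipronil arrays lay below both control arrays in 16 of the 24, against 28.5% of all genes, and above them in 1 (Nr4a1), against 25.2%. With 2 arrays per treatment on this slide, limma called 0 of the 24 there and 12 of all genes (0.0886%). At an unadjusted p under 0.05 there were 6 of the 24, against 19% of all genes. The difference was below 0 both on slide 1 and across slides 2 and 3 in 16 of the 24, against 27% of all genes. Across slides 2 and 3 alone it was below 0 in 17, against 58.5%. It had opposite signs in 5, against 56.2%. The test of the difference between slide 1 and slides 2 and 3 called 1 of the 24 (Junb) and 9.14% of all genes.

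**Figure D1:**
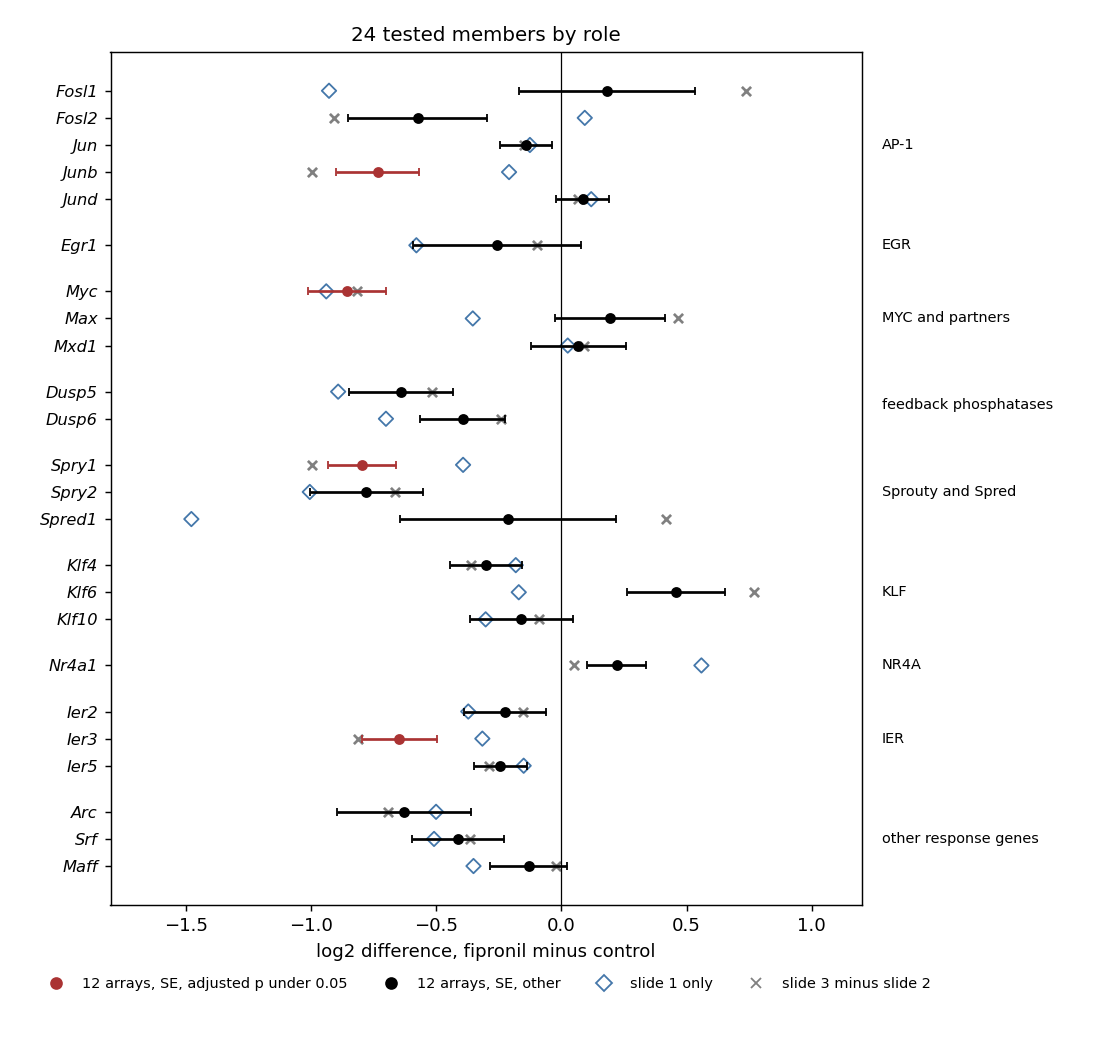
The horizontal axis is the log2 difference, fipronil minus control, and each line is a tested gene, grouped by role. Filled circles with SE bars are the fit over 12 arrays (red, adjusted p under 0.05: Junb, Myc, Spry1 and Ier3), open diamonds are slide 1 alone and crosses are slide 3 minus slide 2; 20 of the 24 diamonds lie left of 0.

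The filter on dim probes touches this account. Of the 24 genes, 18 were above background on all 12 arrays, and those 18 had 14 differences below 0 and 16 on slide 1. Among all 10600 genes above background on all 12 arrays, 6109 had a difference below 0, and 5409 on slide 1. The other 6 of the 24 (Fosl2, Max, Mxd1, Spred1, Spry2 and Arc) were seen on fewer fipronil than control arrays, from 1 to 5 of 6, so their differences carry signals near background. All but Arc were above background on all 6 control arrays, so the controls alone carried them through the filter. With a normexp background and the 75th percentile, the differences of Fosl2 (0.50), Spry2 (0.34), Spred1 (0.71) and Arc (0.57) turned above 0, as did that of Klf4 (0.0078).

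AP-1 is a dimer of a JUN protein with a FOS protein, which binds the promoters of many growth and stress genes. Of its 7 genes 5 were tested, and 1 was lower (Junb). The median difference was -0.14 with the brightest probe of each gene and 0.13 with the mean of its probes, so the group has no settled direction. Junb encodes a JUN subunit that often opposes c-Jun. Its signal ran from -1.12 through a median of -0.94 to -0.87 in controls, and from -2.04 through -1.92 to -1.10 with fipronil. The 4 fipronil arrays of slide 3 stood between -2.04 and -1.91, apart from all others, whereas on slide 1 the fipronil arrays (-1.31 and -1.10) were below their own controls (-1.09 and -0.91), and fipronil 8 reached into the range of the 6 controls. The difference was -0.73 ± 0.17 (SE; 1.66-fold lower, adjusted p = 0.0288, limma). It was -0.21 on slide 1 and -0.99 across slides 2 and 3, and these differed (0.79, adjusted p = 0.0327, limma). The larger part came from slides 2 and 3, where slide and treatment cannot be told apart. The call was lost when slide was a fixed term (adjusted p = 0.476, limma) and in 8 of 12 fits that each left out 1 array, where the adjusted p reached 0.0706 (it passed without control 2, control 5, fipronil 7 or fipronil 8).

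Jun, the gene of c-Jun, had 2 probes above background on all arrays, and they moved apart. The brighter, printed in 10 spots per array, ran from 0.31 through 0.46 to 0.79 in controls and from 0.27 through 0.35 to 0.48 with fipronil, overlapping widely. Its difference was -0.14 ± 0.10 (SE; adjusted p = 0.410, limma), with -0.13 on slide 1. The dimmer, in 1 spot per array, ran from -1.81 through -1.44 to -1.30 in controls, and from -1.27 through -0.66 to -0.17 with fipronil. Each fipronil array was above each control array for that probe. In a fit of each of 16291 probes on its own, added after seeing the data, the dimmer probe differed by 0.80 ± 0.18 (SE; adjusted p = 0.0250, limma), or 0.24 within slide 1 and 1.08 across slides 2 and 3. No direction is therefore given for Jun, whose mean over both probes differed by 0.33.

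The dimmer Jun probe and the Junb probe are shown because they cover related stretches of sister genes and went in opposite directions. Both are from the array files, which place them on the rat build rn4 at chr5:115359410-115359469 (minus strand) and chr19:24832781-24832840 (plus strand).
Jun, dimmer probe: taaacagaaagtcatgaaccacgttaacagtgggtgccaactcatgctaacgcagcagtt
Junb probe: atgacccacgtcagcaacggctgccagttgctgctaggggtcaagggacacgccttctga
In the best ungapped alignment, 29 of 47 bases were identical. No probe of the 39 genes shared a run of 20 bases with a probe of another gene on the array.

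**Figure D2:**
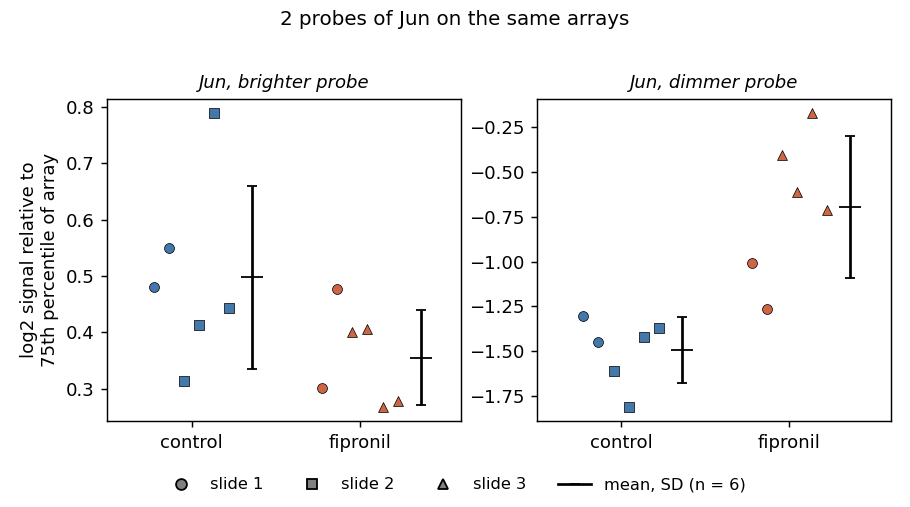
The vertical axes give the log2 signal relative to the 75th percentile of each array for the 2 probes of Jun, with a scale of its own for each probe; points are arrays, marked by slide, and bars are the mean and SD (n = 6). The groups overlap for the brighter probe, while all 6 fipronil arrays lie above the controls for the dimmer probe.

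Jund, the most constant JUN gene in most cells, ran from 1.81 through 1.99 to 2.12 in controls and from 1.94 through 2.03 to 2.32 with fipronil, a difference of 0.08 ± 0.11 (SE; adjusted p = 0.650, limma; 0.12 on slide 1). Its sign turned under median scaling (-0.02) and under a normexp background (-0.11). The FOS-related genes Fosl1 and Fosl2 did not pass, with differences of 0.18 and -0.57. For Fosl1 the difference was -0.93 on slide 1 and 0.74 across slides 2 and 3, and for Fosl2 it was 0.09 and -0.91. Fos itself was above background on 5 arrays (control 2, 3, 7 and 8 and fipronil 8), and Fosb on none, so neither was tested.

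EGR proteins are zinc finger factors induced by ERK, and of their 3 genes only Egr1 was tested. It ran from -0.98 through 0.57 to 0.75 in controls and from -0.82 through -0.08 to 0.42 with fipronil. The controls split: replicates 5 and 6 stood at -0.98 and -0.82 and the other 4 between 0.55 and 0.75, so the groups overlapped over nearly their whole range. The difference was -0.26 ± 0.33 (SE; adjusted p = 0.664, limma), and on slide 1 both fipronil arrays (-0.28 and 0.42) were below both controls (0.75 and 0.55), a difference of -0.58. On the 5 arrays where Fos was above background, Egr1 stood between 0.42 and 0.75, and on the other 7 between -0.98 and 0.19, a match noticed after the values were seen. Egr2 was above background on control 5, 6 and 7 and fipronil 8, and Egr3 on no array.

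MYC pairs with MAX to activate growth genes, while MXD1 takes MAX away from it. Of 4 genes in this group 3 were tested, and Myc was the only 1 past the threshold. The Myc signal ran from 0.29 through 0.88 to 1.19 in controls and from -0.46 through 0.0058 to 0.17 with fipronil. Every fipronil array was below every control array, both on slide 1 (-0.02 and -0.10 against 0.91 and 0.85) and on the other slides. Myc differed by -0.86 ± 0.16 (SE; 1.81-fold lower, adjusted p = 0.0153, limma). The difference was -0.94 on slide 1 and -0.82 across slides 2 and 3, a gap of -0.12 ± 0.34 (SE; adjusted p = 0.823, limma). With slide as a fixed block, the adjusted p of Myc was 0.136.

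Max ran from -3.62 through -3.45 to -3.19 in controls and from -4.31 through -3.06 to -2.80 with fipronil, near background, and differed by 0.19 ± 0.22 (SE; adjusted p = 0.614, limma). On slide 1 its difference was -0.35, with fipronil 7 alone far below the rest. Mxd1 differed by 0.07 (0.03 on slide 1), and Mycn, the neural relative of Myc, was above background on no array. Outside the list, 0 of 7 tested genes of the MAX network passed (10 genes listed; at an adjusted p of 0.0508, Mnt, a MYC antagonist, differed by 0.49, or 0.23 on slide 1, named after its values were seen).

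Among the feedback phosphatases, Dusp5 acts on nuclear ERK and Dusp6 on cytoplasmic ERK. These 2 of the 6 were tested; both had differences below 0 and neither passed. Dusp6 ran from 0.68 through 0.84 to 1.16 in controls and from 0.12 through 0.33 to 1.04 with fipronil. Fipronil 1 and 2 (0.87 and 1.04) lay within the control range, and the other 4 fipronil arrays (0.12 to 0.39) lay below every control. The difference was -0.39 ± 0.17 (SE; adjusted p = 0.173, limma), and on slide 1 it was -0.70, without overlap.

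Dusp5 ran from -0.86 through -0.51 to 0.25 in controls and from -1.46 through -1.06 to -0.66 with fipronil. Here too fipronil 1 and 2 (-0.77 and -0.66) reached into the control range. Its difference was -0.64 ± 0.21 (SE; adjusted p = 0.0807, limma), with -0.89 on slide 1. Dusp1, a nuclear phosphatase of several MAP kinases, was above background on control 3, 6, 7 and 8 and on no fipronil array. Dusp2 was seen on control 6 and 7 and Dusp4 on control 8, while Dusp10 was seen on none.

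Sprouty and Spred proteins dampen receptor signalling to ERK, and their transcripts rise with ERK activity. Of 5 genes 3 were tested, 1 was lower (Spry1), and the median difference was -0.78, with -1.0 on slide 1. Both medians are the values of Spry2. Spry2 and Spred1 were above background on all 6 control arrays, so the controls alone carried them through the filter. Their fipronil signals lay near background, so the group median is not settled. Spry1 ran from 2.13 through 2.24 to 2.58 in controls and from 1.14 through 1.49 to 1.80 with fipronil. All 6 fipronil arrays lay below all 6 controls, and the slide 1 arrays (1.73 and 1.80 against 2.15 and 2.17) were the closest to them. The difference was -0.79 ± 0.14 (SE; 1.73-fold lower, adjusted p = 0.0126, limma), with -0.39 within slide 1 and -1.0 across slides 2 and 3. A test of the contrast between slides gave an adjusted p of 0.101 (limma), and with slide as a fixed block the adjusted p of Spry1 was 0.282.

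Spry2 was dimmer, above background on 6 control and 3 fipronil arrays. It ran from -3.38 through -2.73 to -2.21 in controls and from -3.88 through -3.62 to -2.85 with fipronil, with fipronil 1 inside the control range. The difference was -0.78 ± 0.22 (SE; adjusted p = 0.0596, limma) and -1.0 on slide 1, but it was 0.34 with a normexp background. Spred1, above background on 1 fipronil array, differed by -0.21. It took its slide 1 value of -1.48 from fipronil 8 alone (-6.27). Spry4 was above background on control 7 alone, and Spred2 on no array.

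**Figure D3:**
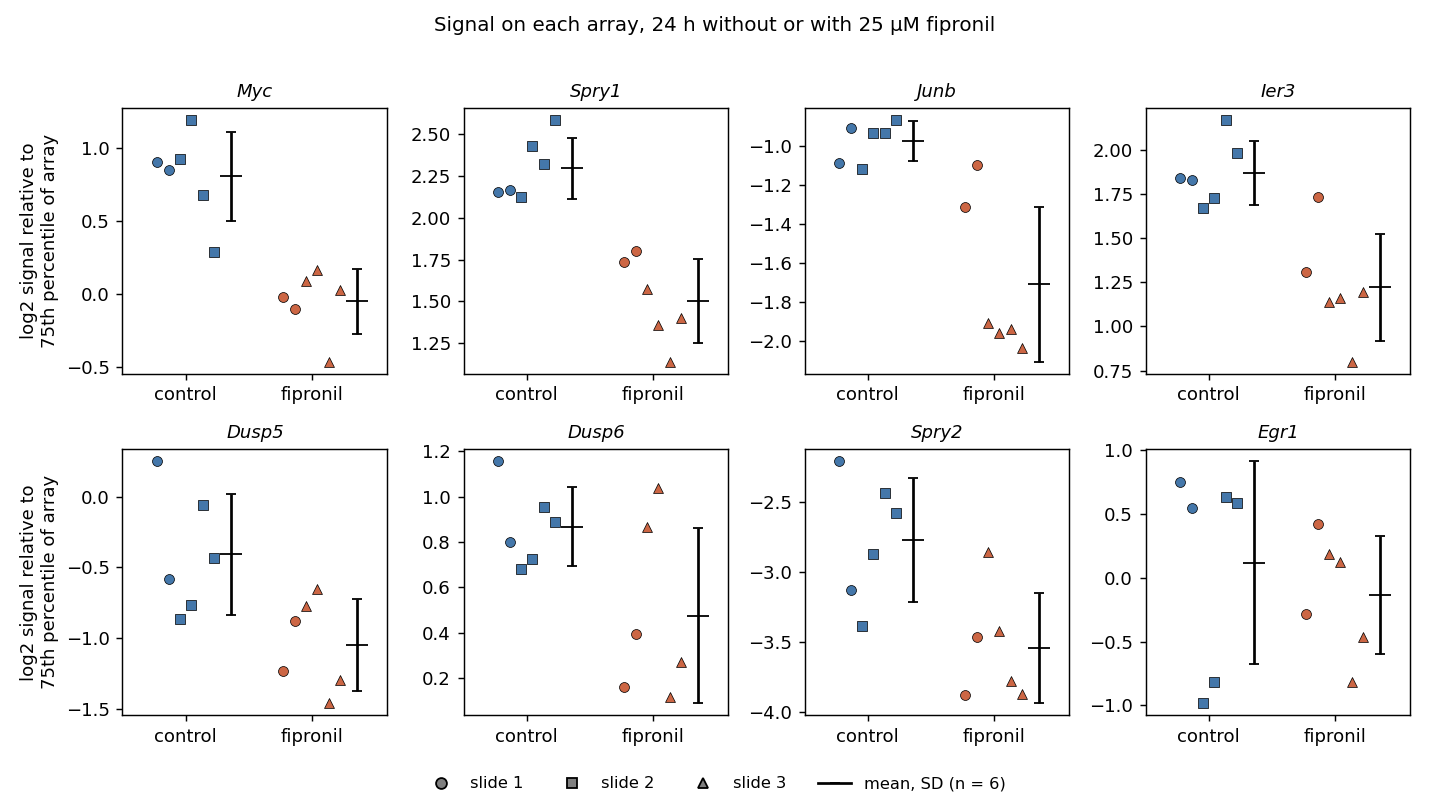
Each panel plots 1 gene, with the log2 signal relative to the 75th percentile of each array on a scale of its own for each panel; points are arrays marked by slide, and bars are the mean and SD (n = 6). The groups do not overlap for Myc and Spry1, Junb is low on slide 3 above all, and the Egr1 controls split into 4 high and 2 low arrays.

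KLF genes encode zinc finger factors that respond to serum and stress; 3 of 4 were tested and 0 passed. Klf10, a target of TGF-beta, ran from 0.0087 through 0.19 to 0.87 in controls and from -0.26 through 0.29 to 0.58 with fipronil, a difference of -0.16 ± 0.21 (SE; adjusted p = 0.663, limma; -0.30 on slide 1). Klf6 ran from -1.53 through -0.87 to -0.58 in controls and from -1.04 through -0.42 to -0.25 with fipronil, with overlap through the slide 1 arrays. It differed by 0.46 ± 0.20 (SE; adjusted p = 0.170, limma), and on slide 1 by -0.17. Klf4 differed by -0.30 (-0.18 on slide 1) and Klf2 was above background on no array.

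NR4A genes encode orphan nuclear receptors that calcium and cAMP induce, and Nr4a2 is also needed for dopaminergic neurons. Nr4a1 was the only 1 of 3 tested. Its signal ran from -2.74 through -2.66 to -2.55 in controls and from -2.72 through -2.5 to -2.08 with fipronil. The slide 1 fipronil arrays (-2.08 and -2.22) stood above all others, while those of slide 3 (-2.72 to -2.49) overlapped the controls. The difference was 0.22 ± 0.12 (SE; adjusted p = 0.262, limma), or 0.56 within slide 1 and 0.05 across slides 2 and 3. Nr4a2 was above background on control 8 alone and Nr4a3 on no array.

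The 3 IER genes, short transcripts with rapid turnover, were all tested, all had differences below 0 on slide 1 and across slides 2 and 3, and Ier3 passed. Ier3, linked to cell survival and ERK, ran from 1.67 through 1.83 to 2.17 in controls and from 0.80 through 1.18 to 1.73 with fipronil. Fipronil 8 (1.73) lay within the control range and the other 5 fipronil arrays lay below it. The difference was -0.65 ± 0.15 (SE; 1.57-fold lower, adjusted p = 0.0295, limma), with -0.32 on slide 1. The call was lost when slide was a fixed term (adjusted p = 0.448, limma) and in 9 of 12 fits without 1 array, with an adjusted p of up to 0.0706 (it passed without control 5, fipronil 7 or fipronil 8).

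Ier2 ran from 2.74 through 2.85 to 3.20 in controls and from 2.29 through 2.58 to 3.18 with fipronil, with fipronil 1 and 2 (3.02 and 3.18) near the top of the control range. It differed by -0.23 ± 0.16 (SE; adjusted p = 0.408, limma). Ier5 ran from 1.69 through 1.80 to 2.08 in controls and from 1.44 through 1.56 to 1.78 with fipronil, and differed by -0.24 ± 0.11 (SE; adjusted p = 0.176, limma). For both genes the slide 1 differences were also below 0, at -0.37 and -0.15.

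Of the other response genes, Srf, Maff and Arc were tested, all had differences below 0, and 0 passed. Srf encodes the factor that binds the CArG box (serum response element) of many immediate early promoters. It ran from -0.05 through 0.47 to 0.82 in controls and from -0.52 through 0.08 to 0.43 with fipronil, overlapping through control 5 and 6 (-0.05 and 0.13), and differed by -0.41 ± 0.18 (SE; adjusted p = 0.185, limma; -0.51 on slide 1). Maff, a small MAF factor, ran from 0.06 through 0.30 to 0.47 in controls and from -0.29 through 0.18 to 0.66 with fipronil, and differed by -0.13 ± 0.15 (SE; adjusted p = 0.625, limma; -0.35 on slide 1). Arc, a marker of neuronal activity, was near background and differed by -0.63 (-0.50 on slide 1), but by 0.57 with the normexp background and 75th percentile. Zfp36, which speeds the decay of unstable transcripts, was above background on control 7 alone.

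Across the 24 genes, the single fipronil arrays differed from each other. The median of a gene's value minus the control mean was -0.65 on fipronil 3, -0.41 on fipronil 7, -0.23 on fipronil 8 and -0.17 on fipronil 4. It was -0.04 on fipronil 1 and -0.06 on fipronil 2, against -0.09 to 0.01 over all genes on these 6 arrays. The control arrays also differed from each other. Their medians ran from -0.15 on control 5, with 17 of the 24 genes below the control mean, to 0.08 on control 7, with 5 below it. Over all genes, 45% lay below it on control 5 and 55.5% on control 7. Dusp5, Dusp6, Egr1, Ier2 and Srf each stood lower on fipronil 3, 4 and 7 than on fipronil 1 and 2, an order noticed after the values were seen. The order is not particular to these genes, as Fosl1, Jun, Maff and Myc, among others, showed it too. How many of all genes followed this order was not counted. On fipronil 8, Egr1 (0.42) and Srf (0.17) were not below both fipronil 1 and 2. Myc and Spry1 were below every control on all 6 fipronil arrays.

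**Figure D4:**
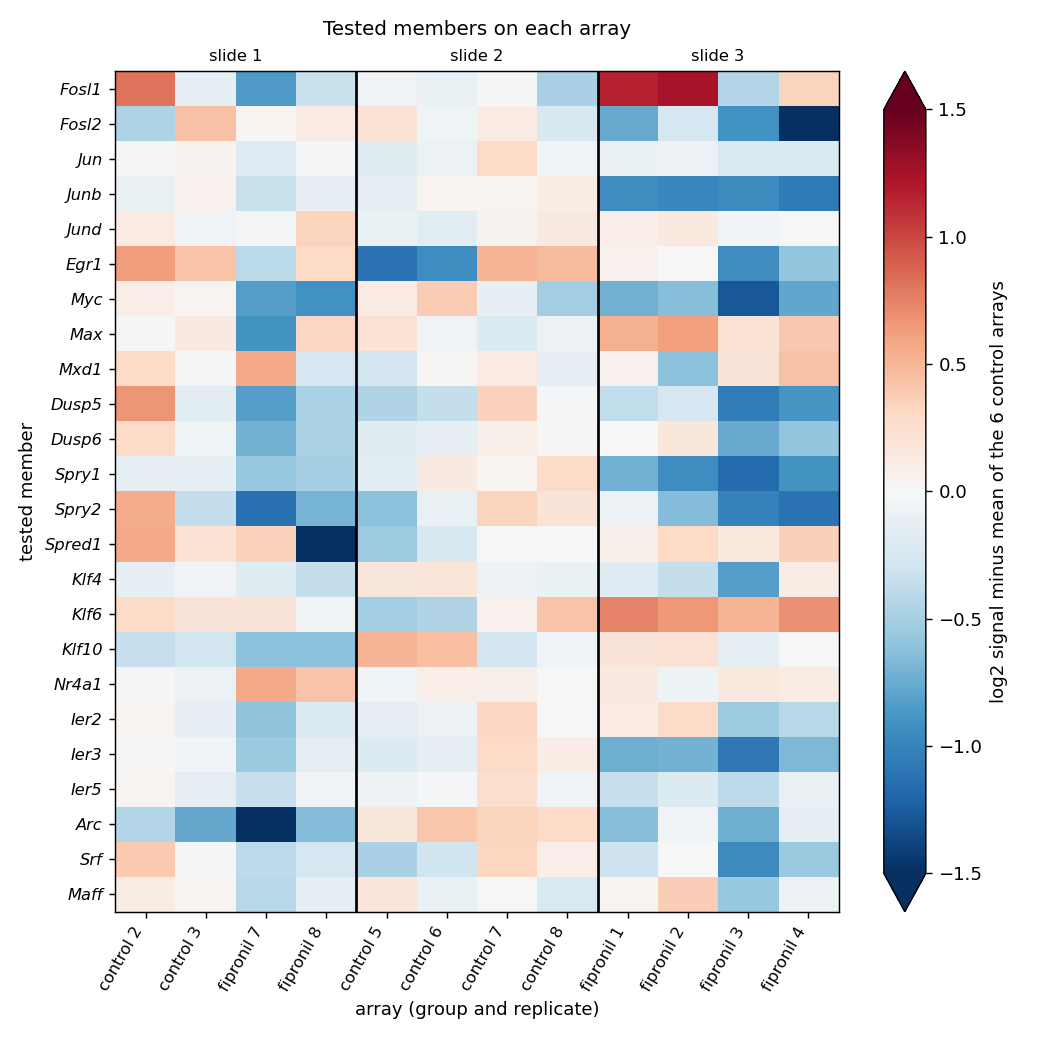
The colour gives the log2 signal of each tested gene minus its mean over the 6 control arrays (colours end at -1.5 and 1.5, and values beyond them are drawn at the end colour), with arrays in columns by slide. Myc and Spry1 are blue on all 6 fipronil arrays, Junb is darkest on slide 3, and 19 of the 24 genes lie below the control mean on each of fipronil 3, 7 and 8. Over all genes, 54.4%, 52.8% and 49.3% lay below it on these 3 arrays.

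The 15 genes that were not tested fall into 7 that were above background on no array and 8 that were above it on 1 to 5 arrays. All 8 were seen on more control than fipronil arrays. Slide 2, which holds controls alone, was also the brightest slide, with at least 47.4% of all spots well above background on each array. On slide 3, which holds fipronil alone, the share was at most 42.5% on each array. Spots of all genes together were thus seen less often on slide 3. The same count over all dim genes was not made, so these counts cannot be read as particular to these genes. The part of slide in them was not tested. On slide 1, Fos was above background on both control arrays and 1 fipronil array, Dusp1 on 1 control array, and Egr2 on 1 fipronil array.

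Promoter sequences of 28 of the 39 genes were read from a RefSeq table for GRCr8, as 250 bases before and 50 after the start. They were searched on both strands for 5 motifs: the CArG box, the CRE (TGACGTCA, bound by CREB), the AP-1 site (TGANTCA), the E-box of MYC and MAX (CACGTG) and the EGR site. A CArG box was found in 6 of the 28 (Egr1, Egr2, Dusp5, Klf6, Srf and Zfp36), against 1.64% of 27457 promoters. A CRE was found in 4 (Jund, Dusp1, Ier2 and Maff), against 1.91%, an E-box in 5, against 6.65%, and an EGR site in 7, against 3.31%. An AP-1 site was found in 0 of the 28, against 7.33%, which says only that these letters are not in these windows. Of the 28, 19 belong to tested genes, and the shares over 8149 promoters of all tested genes were different. A CArG box was in 4 of the 19 (1.23% of the 8149) and a CRE in 3 (3.53%). An E-box was in 3 (9.78%), an EGR site in 5 (6.15%) and an AP-1 site in 0 (4.60%). Of the 4 genes past the threshold, Junb and Spry1 had an entry, and neither held any of the 5 motifs.

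The stretches from 130 to 31 bases before the start are shown for Srf and Dusp5, as examples with a pair of CArG boxes (Egr1 also holds a pair), and for Ier2, as an example with a CRE. All are on the plus strand, at chr9:21923946-21924045, chr1:262543644-262543743 and chr19:40399243-40399342, and capitals mark the motifs searched.
Srf: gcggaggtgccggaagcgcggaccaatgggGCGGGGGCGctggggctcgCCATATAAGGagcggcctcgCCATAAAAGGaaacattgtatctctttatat
Dusp5: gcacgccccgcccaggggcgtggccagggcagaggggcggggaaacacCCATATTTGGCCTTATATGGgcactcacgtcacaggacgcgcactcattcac
Ier2: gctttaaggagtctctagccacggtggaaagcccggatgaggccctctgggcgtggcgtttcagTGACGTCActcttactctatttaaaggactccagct
The first capitals in Srf are an EGR site. Of the 6 genes with a CArG box 4 were tested, with slide 1 differences of -0.51 for Srf, -0.89 for Dusp5, -0.58 for Egr1 and -0.17 for Klf6 (0.46 over 12 arrays). Of the 4 with a CRE 3 were tested, with slide 1 differences of -0.37 for Ier2, -0.35 for Maff and 0.12 for Jund. None of these 7 passed over 12 arrays. These matches are descriptions of sequence and no binding was measured.

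The other genes of the pathway were counted in lists of cascade members, factors and targets. Of 54 genes of the MAPK cascade 45 were tested; 1 was higher, the MEK gene Map2k2 (0.38 ± 0.09 SE, adjusted p = 0.0379, limma; 0.33 on slide 1), and 1 was lower, the kinase Mapkapk3 (-1.02, adjusted p = 0.0334, limma; -0.28 on slide 1), which was above background on 3 fipronil arrays. Mapkapk3 was above background on all 6 control arrays, so the controls alone carried it through the filter. Its fipronil signals lay near background, so the size of its difference is not settled. The shares over all genes were 2.77% lower and 2.24% higher. The median over the 45 was -0.04, and 0.06 on slide 1. Of the factors that bind immediate early promoters, such as Elk1 and Creb1, 0 of 10 tested passed, and of the AP-1 dimer partners 0 of 8. Of the other phosphatases and feedback genes 0 of 9 passed, and their median was 0.21, or 0.05 on slide 1.

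Among other growth factor and ERK response genes, 24 of 27 were tested, 3 were lower and 2 were higher, with a median of -0.14. Among all genes, 2.77% were called lower and 2.24% higher. On slide 1 the median of the 24 was -0.05, with 14 below 0, against 51.6% of all genes. Rhob, a small GTPase gene that growth factors induce, differed by -0.96 ± 0.15 (SE; adjusted p = 0.00959, limma), with -1.08 on slide 1 and no overlap between groups. Txnip differed by -1.32 (adjusted p = 0.0154, limma; -0.56 on slide 1). Btg1, an antiproliferative gene, was higher by 0.59 (adjusted p = 0.0279, limma; 0.29 on slide 1). The others, named after their values were seen, were Ccn2, a matrix-linked growth factor gene, and Phlda1. Ccn2 differed by 0.56 (adjusted p = 0.0378, limma), with 0.30 on slide 1. Phlda1 differed by -1.31 (adjusted p = 0.0400, limma), with -1.43 on slide 1. Phlda1 was well above background on 6 control arrays and on no fipronil array, so it passed the filter through the controls alone. Its fipronil signals lay near background, so the size of its difference is not settled. With slide in the fit, none of these 5 genes passed (adjusted p from 0.105 for Rhob to 0.492 for Ccn2, limma), nor did Map2k2 (0.261) or Mapkapk3 (0.714).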

How the data were processed

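The authors read the scans with Agilent Feature Extraction, 10.7 per the submitters' processing notes and 10.1.1.1 per the file headers. Per the file headers, the processed signal is an intensity after background subtraction and detrending, unscaled between arrays, and other columns flag spots as well above background or as outliers. The deposited table, log2 values after quantile normalization by the authors, served as an alternative.

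Outlier spots were left out unless all spots of a probe were marked. The log2 processed signal minus the 75th percentile of the array's spots that are not controls was averaged over a probe's spots. Probes well above background on at least 6 of 12 arrays were kept (16291), and the brightest stood for each gene (13542). Saturated spots numbered 0. The number of arrays limits the precision. Names were updated through a RefSeq table for GRCr8.

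Groups were compared with limma 3.58.1 in R 4.3.3 (lmFit and eBayes, two-sided, Benjamini-Hochberg over all genes, threshold 0.05), with slide left out of the fit. Slide 1, slides 2 and 3 and their difference came from a fit with a mean for each treatment on each slide. Replicate numbers 2, 3, 7 and 8 occur in both groups but lie on different slides (correlation of deviations 0.43, 0.08, -0.11 and -0.31), so they were not used as pairs. Alternatives changed the scaling, background, filter, probe choice, slide or replicate block and samples, with the probe GC trend, slide 1 scalings and single-probe tests added after seeing the data. On simulated data for 200 of 13542 genes, 95% of changes of 1.5 (log2) and 69% of changes of 0.75 were recovered, with 9 false calls. The simulated noise was independent between arrays and held no slide effect. These rates therefore do not describe the real arrays, where slide and treatment are partly mixed.

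Members and lists were chosen with earlier results of these data known. Values on the arrays are given for genes past the threshold and the 2 brightest tested genes of each role, and of other lists up to 3 called genes are named, by smallest adjusted p.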

Additional observations from a re-analysis of the deposited data

Results flagged for a closer look

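In the 48 groups of 6 arrays formed by the 24 tested genes, 3 had a single array apart from the other 5, and chance sets such an array apart in about 1 in 20 groups. Fosl1, the FOS-related AP-1 gene, stood at -0.31 on control 2, with the other controls between -1.60 and -1.15. Max, the partner of MYC, stood at -4.31 on fipronil 7, with the other fipronil arrays between -3.20 and -2.80. Spred1, an inhibitor upstream of ERK, stood at -6.27 on fipronil 8, with the others between -3.66 and -3.40. The fipronil values of Max and Spred1 lay near background.

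The difference in Junb between fipronil and control arrays was -0.21 within slide 1 and -0.99 between slides 3 and 2, where slide and treatment cannot be told apart. Both values differed by 0.79 (adjusted p = 0.0327, limma), and the cause was not tested.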

How the results depend on the processing

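Of the 594 values of tested genes under alternatives, 533 kept their direction and side of the threshold, 21 reversed, 25 lost a call and 15 gained one, and 13 of the 24 genes reversed nowhere. Against 4 lower and 0 higher, a normexp background with the 75th percentile gave 8 lower and 7 higher genes (6774 of all genes changed, 1661 lower and 5113 higher; median of all genes 0.17), and no filter gave 6 lower and 5 higher (16312 changed; median of all genes 0.55). Slide as a fixed block left 0 lower (12 changed) and slide as a random block 0 (21 changed). With slide random, the adjusted p was 0.0802 for Myc, 0.0859 for Spry1, 0.160 for Junb and 0.168 for Ier3 (limma), and with slide fixed it was 0.476 for Junb and 0.448 for Ier3. Leaving out each array in turn gave 2 to 5 lower and 228 to 2022 changed genes, the most without fipronil 8. Myc and Spry1 passed in 12 of these 12 fits, Junb in 4 and Ier3 in 3. Without fipronil 3, 4 or 2, or control 3, 6, 7 or 8, 2 were lower. The replicate block gave 5 lower, with Spry2 added; the labels do not say whether the numbers mark pairs. All genes split into 435 lower and 150 higher under median scaling (median of all genes -0.18) and 318 and 494 with the GC trend removed. On slide 1, the alternatives left 18 to 21 of 24 genes below 0.

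Reversed values were Jund -0.017 and Mxd1 -0.033 under median scaling, and Fosl2 0.50, Jund -0.11, Spry2 0.34, Spred1 0.71, Klf4 0.0078 and Arc 0.57 with normexp and the 75th percentile. With normexp and quantile normalization they were Mxd1 -0.039 and Spred1 0.056, and with the mean of a gene's probes Jun 0.33. With slide fixed they were Fosl1 -0.93, Fosl2 0.094, Max -0.35 and Klf6 -0.17, and with slide random Fosl1 -0.17. Leaving out an array gave Mxd1 -0.032 to 0.20, Spred1 -0.33 to 0.25 and Fosl1 -0.028 to 0.39. The cause was not tested, except that slide as a fixed block takes the difference from 4 arrays.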
